A study of Mus musculus with 12 samples.

Results

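The effect of an siRNA against lincRNA-Tnfaip3 on macrophage transcripts was taken as an average over cells without and with lipopolysaccharide (LPS). It was defined by the design: the 6 arrays of the lincRNA siRNA were set against the 6 arrays of the control siRNA, as the mean of the siRNA difference without LPS and the siRNA difference with LPS. These are all 12 arrays of the series, and the averaged difference was tested for 23818 features, each a gene, a clone or a long intergenic noncoding RNA (lincRNA) region. RAW264.7 cells, a mouse macrophage line, received a scrambled, non-specific siRNA or the siRNA against lincRNA-Tnfaip3 for 24 h and were then kept for 4 h without LPS or with E. coli LPS at 1 µg/ml. The 4 groups of 3 arrays were therefore control siRNA, control siRNA with LPS, lincRNA siRNA, and lincRNA siRNA with LPS. Every group carried a transfected siRNA, no group was free of transfection, and the labels name 1 siRNA against the lincRNA. Whether the 3 arrays of a group stem from separate cultures is not in the labels, so the p-values here reflect no more than the spread among these samples, and that spread may be technical.

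LPS is sensed by TLR4 on macrophages, and NF-kB and interferon regulatory factors then switch on cytokine, chemokine and interferon-stimulated genes. Tnfaip3 encodes A20, a ubiquitin-editing enzyme that restrains NF-kB, and lincRNA-Tnfaip3 is a noncoding RNA named after that neighbour. An siRNA lowers a transcript by guiding the RNA-induced silencing complex to it. An average over both LPS states keeps what the siRNA did alike in resting and stimulated cells; a difference seen in 1 state alone enters it at a reduced size.

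All 8 macrophage markers examined, among them Csf1r, Adgre1 and Cd68, were well above background on all 12 arrays. Of 34 markers of other cell types on the array, 9 were at background on every array, 12 were above it on all 12, and their summed signal (linear, relative to the array's 75th percentile) ran from 20.4 to 28.5 on control-siRNA arrays, 27.2 to 34.5 on lincRNA-siRNA arrays, 31.2 to 37.2 on control-siRNA arrays with LPS and 32.6 to 39.1 on lincRNA-siRNA arrays with LPS. Their part in the results was not tested. The arrays lay on 3 slides: slide 1 carried nothing but control-siRNA arrays 1 and 2, slide 3 nothing but lincRNA-siRNA arrays 2 and 3 with LPS, and the other 8 arrays, from all 4 groups, were on slide 2. Control-siRNA arrays 1 and 2 stood apart, with 27196 and 29450 probes well above background against 32701 to 36389 on the others. The knockdown itself was not checked here: 0 probes carried the name lincRNA-Tnfaip3, and of the 8 probes on chromosome 10 less than 500 kb away from that of Tnfaip3, 0 belonged to a lincRNA region.

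On the average over LPS states, 23 features passed at an adjusted p under 0.05 (limma, Benjamini-Hochberg over all features), which is 0.0966% of those tested. With the lincRNA siRNA 11 were higher (0.0462%), among them the pentose phosphate enzyme gene Taldo1 and the redox genes Srxn1 and Maff, and 12 were lower (0.0504%), among them Trp53inp1, Sf3b1 and C3ar1. The changes were small: in absolute log2 units they ran from 0.46 to 0.93, apart from Hook1. Hook1 was at background on the control-siRNA arrays without LPS, so the size of its change is uncertain. By measured values 17 of the 23 reached 1.5-fold. Measured values were at least 2-fold for 404 features (1.7%). Of the 23, Hook1 alone was among these, and it was 1.64-fold when its background readings were raised to a floor given below. At an unadjusted p under 0.05 there were 4060 features (17.0%), 2581 of them higher (10.8%) and 1479 lower (6.21%). The median over all features was 0.04, with quartiles of -0.12 and 0.22. In bulk RNA, fewer cells of a type and less RNA per cell cannot be told apart.

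All 23 moved the same way in both LPS states, and in neither state did the arrays of the siRNAs overlap. These same arrays chose the 23, by a large mean over the states and a small spread, which favours both traits. Neither trait is therefore separate support. Over all features 63.9% had the same sign in both states, and 3.56% did not overlap in either state in 1 direction (2.5% higher and 1.05% lower). Neither state alone gave a passing feature by limma. Without LPS 4356 features (18.3%) had an unadjusted p under 0.05 and the lowest adjusted p was 0.0833, and with LPS 1112 (4.67%) did and the lowest adjusted p was 0.182. The difference between the states (the siRNA by LPS interaction) also gave 0 passing features, with 900 (3.78%) at an unadjusted p under 0.05. In 18 of the 23 the larger difference was the one without LPS. The share of all features for which this held was not counted, so it cannot be called a trait of the 23. In 6 of the 23, Hook1 among them, the interaction had an unadjusted p under 0.05 by limma, against 3.78% of all features. The difference without LPS was the larger in all 6. The choice of the 23 by a small spread favours this too. The control-siRNA arrays of slide 1 are in the state without LPS. Without these arrays the median of the averaged difference over all features was 0.0024, against 0.04 with them. Their part in the differences was not tested.

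**Figure D1:**
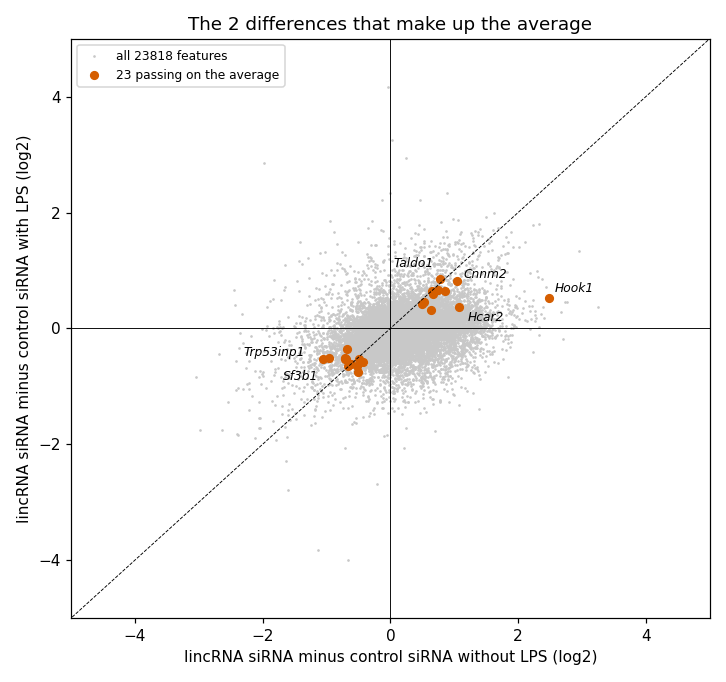
Each grey point is 1 of 23818 features, with the lincRNA siRNA minus control siRNA difference without LPS on the x axis and with LPS on the y axis, both in log2 units. Orange points are the 23 features that passed on the average: all lie to the upper right or lower left of the zero lines, and Hook1, at background on the control-siRNA arrays without LPS, lies farthest from the dashed line of equal differences.

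The slide was not balanced over the groups, and this touches each count here. Slides 1 and 3 each held arrays of 1 group, so a slide block takes their arrays out of the siRNA difference. They then add only to the estimate of the spread. Each blocked value in this report is thus the slide 2 value, where each LPS state has a single array of 1 siRNA. With the slide as a block in the model, 0 features passed and 1800 (7.56%) had an unadjusted p under 0.05, with 4.31% higher and 3.25% lower. The 23 features then had adjusted p-values of 0.108 to 0.342, with changes close to those without the block: Taldo1 was at 0.79, Srxn1 at 0.74, Trp53inp1 at -0.67 and Castor2 at -0.69. Within slide 2, the comparison that the block makes, all 23 kept their sign in both LPS states, although these are arrays that also chose them. Without the arrays of slide 1, 3 features passed, and without those of slide 3, 1 passed, in both cases 0 of the 23. Every single array moved the count by over 1.5 times when left out: it was 1471 without control-siRNA array 3, 215 without lincRNA-siRNA array 1, and 3 or 4 without control-siRNA array 1, lincRNA-siRNA array 3 or arrays 1 or 3 of control siRNA with LPS. It was 0 without array 2 of control siRNA, of control siRNA with LPS or of lincRNA siRNA. Leaving out any array of lincRNA siRNA with LPS also gave 0. Without control-siRNA array 3, the controls without LPS are all on slide 1 and the lincRNA-siRNA arrays without LPS all on slide 2. In that state, slide and siRNA then cannot be told apart.

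**Figure D2:**
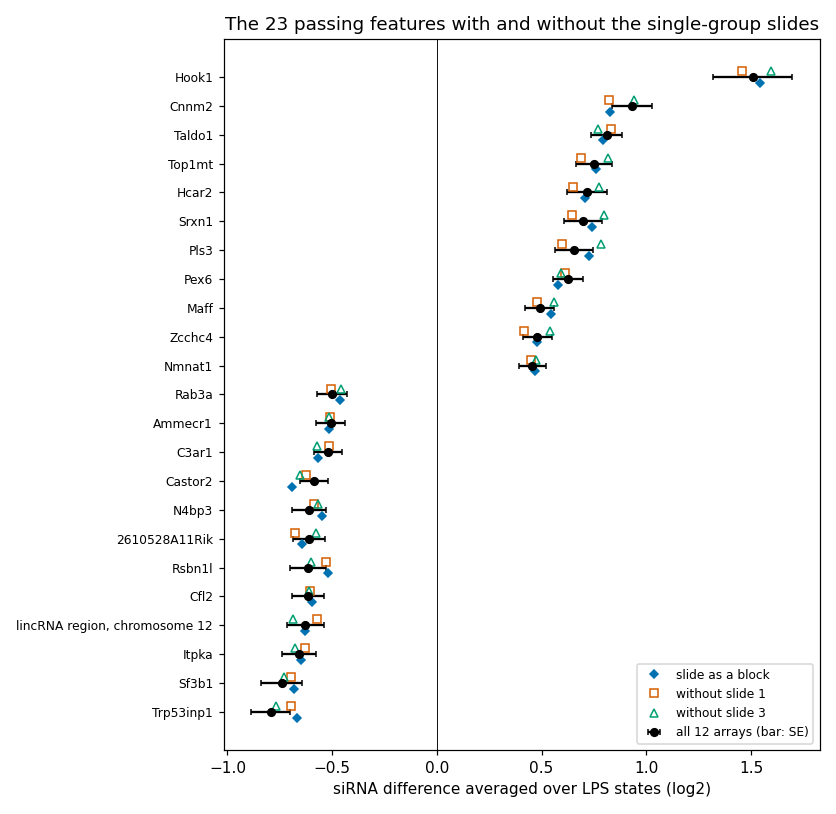
Averaged siRNA difference (log2) of the 23 passing features from all 12 arrays (black, bar: standard error), with the slide as a block (blue), and without slide 1 or slide 3. The markers of each feature stay on its side of 0, and the block places Trp53inp1 at -0.67 and Castor2 at -0.69.

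Taldo1 encodes transaldolase, which exchanges carbon units between sugar phosphates in the non-oxidative pentose phosphate pathway, the pathway that also supplies NADPH. Its log2 signal relative to the array's 75th percentile was 6.90, 6.84 and 6.80 with control siRNA and 7.48, 7.65 and 7.71 with lincRNA siRNA. With LPS it was 6.76, 6.76 and 6.98 against 7.6, 7.80 and 7.63. The lowest lincRNA-siRNA array was thus above the highest control array in both states. Taldo1 rose by 0.81 ± 0.08 (SE; 1.75-fold; adjusted p = 0.0235, limma, n = 6 against 6), the lowest adjusted p of all features, with 0.77 without LPS and 0.85 with LPS. Its probe lies on chromosome 7 at 148588764 to 148588823 on the forward strand of mm9.

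Of the 11 measured genes of the pentose phosphate pathway, Taldo1 alone passed, and 3 were higher and 0 lower at an unadjusted p under 0.05 (1 and 0 with the slide as a block). In all, 27.3% of the list had such an unadjusted p, against 17.0% of all features. G6pdx, the first enzyme of the oxidative branch, stood at 0.23 ± 0.08 (adjusted p = 0.237, limma). Tkt, transketolase, which works beside transaldolase, stood at 0.04 ± 0.13, and the median of the list was 0.13. Among 29 measured genes of glycolysis and hypoxia 0 passed, 6 were higher and 0 lower at an unadjusted p under 0.05 (20.7% in all, against 17.0% of all features), and with the slide as a block 0 were higher and 2 lower. Ldha, lactate dehydrogenase A, had the smallest p at 0.45 ± 0.17 (adjusted p = 0.246, limma). Ldha read 8.17 and 8.33 on the control-siRNA arrays of slide 1 and 8.98 to 9.48 on the other 10 arrays, and under the block it stood at -0.012.

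Srxn1 encodes sulfiredoxin, which repairs over-oxidised peroxiredoxins and is a known target of NRF2, the transcription factor of the oxidative stress response. Its log2 signal was 4.24, 4.04 and 4.30 with control siRNA and 4.90, 5.01 and 4.89 with lincRNA siRNA, and with LPS 4.48, 4.37 and 4.68 against 5.36, 5.12 and 5.02. No array overlapped within a state, and the siRNA difference was 0.74 without LPS and 0.66 with LPS, with an unadjusted p of 0.65 for the interaction. Srxn1 rose by 0.70 ± 0.09 (1.62-fold; adjusted p = 0.0329, limma).

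Maff encodes a small Maf protein, a bZIP factor without a transactivation domain that pairs with NRF2 and related factors on antioxidant response elements. Its log2 signal was -0.03, -0.03 and 0.01 with control siRNA and 0.48, 0.47 and 0.56 with lincRNA siRNA, and with LPS 1.01, 1.17 and 1.16 against 1.71, 1.44 and 1.57. Maff was also higher with LPS, by 1.1 on average over the siRNAs, so the 4 groups formed 4 separate levels. The siRNA difference was 0.49 ± 0.07 (1.40-fold; adjusted p = 0.0427, limma).

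Srxn1 was the only one of 25 measured NRF2 and glutathione-thioredoxin genes to pass. At an unadjusted p under 0.05, 15 of the 25 were higher (60.0%, against 10.8% of all features) and 0 were lower. Lists of heat shock genes (58.3%) and housekeeping controls (50%) came close to that share, also with 0 lower. A value above 0 was found for 22 of the 25, against 57.2% of all features. Nqo1, which was kept for testing only through a lincRNA-siRNA group, is among the 22 and was not taken out of the list's shares and medians. The list's median was 0.26, with 0.26 without LPS and 0.27 with LPS. With the slide as a block, 10 were higher at an unadjusted p under 0.05 (4.31% of all features) and the median was 0.24. The list was written with earlier results of these data known, so its counts are a description. On each array, the median log2 signal over the 25 genes was 4.10 to 4.24 with control siRNA and 4.36 to 4.42 with lincRNA siRNA, and with LPS 4.14 to 4.19 against 4.37 to 4.52.

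The members beyond Srxn1 are named after their values were seen, and none of them passed. Slc48a1, a heme transporter, stood at 0.44 ± 0.07 (adjusted p = 0.0672), Prdx6, a peroxiredoxin, at 0.44 ± 0.08, and Sqstm1, the autophagy receptor p62, at 0.35 ± 0.07. Gclm, the modifier subunit of glutathione synthesis, stood at 0.44 ± 0.09, and its catalytic partner Gclc at -0.03 ± 0.09. Txnrd1, thioredoxin reductase, stood at 0.35 ± 0.07 and Slc7a11, the cystine importer, at 0.49 ± 0.15. The arrays of all these but Gclc did not overlap in either state. Of the 25 list genes 7 were higher without overlap, against 2.5% of all features. Nqo1, a quinone reductase, was well above background on 0 of 6 control-siRNA arrays and 5 of 6 lincRNA-siRNA arrays. It was therefore kept for testing only through a lincRNA-siRNA group, where it was high. With control readings raised to each array's lowest signal well above background, it was 1.14-fold higher without LPS and 2.06-fold with LPS. These are not strict lower limits, as a probe at background can read above that signal. Hmox1, a classic target, was at 0.05 ± 0.60. Nfe2l2, which encodes NRF2, stood at 0.24 ± 0.09 and Keap1, its inhibitor, at -0.16 ± 0.07.

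**Figure D3:**
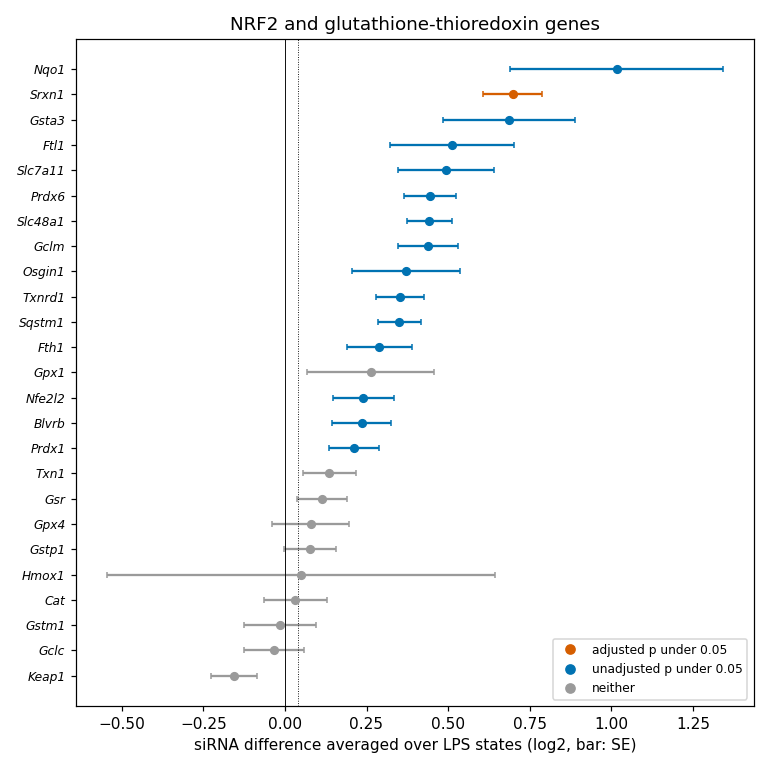
Averaged siRNA difference (log2, bar: standard error) of the 25 measured NRF2 and glutathione-thioredoxin genes, with the dotted line at the median of all features, 0.04. Srxn1 (orange) passed after adjustment, 15 genes with Srxn1 lie above 0 at an unadjusted p under 0.05 (the others blue), and Keap1 lies lowest at -0.16. The point of Nqo1 is its measured value, with control-siRNA arrays at background.

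Because NRF2 and small Maf proteins bind a shared element, the 250 bases before the start of each gene were searched for the letters TGACNNNGC on both strands in RefSeq's promoters of GRCm38.p6. The letters occurred in 10.2% of 32851 promoters, and in at least 1 promoter of 11.5% of 27025 genes. They occurred in 5 of 20 genes of the NRF2 list that had an entry (25%), in 1 of 9 passing genes that were higher (11.1%, close to that of all genes), which was Maff, and in 0 of 10 that were lower. A match is a description of letters and not a binding site. The promoter of Maff is shown because it is the one match among the passing genes, and those of Prdx1, Gclm, Txnrd1, Gsta3 and Nfe2l2 because these are the 5 NRF2-list genes with a match. Each runs 5′ to 3′ along its gene, and capitals mark the match.
Maff, chr15:79346371-79346620, forward strand: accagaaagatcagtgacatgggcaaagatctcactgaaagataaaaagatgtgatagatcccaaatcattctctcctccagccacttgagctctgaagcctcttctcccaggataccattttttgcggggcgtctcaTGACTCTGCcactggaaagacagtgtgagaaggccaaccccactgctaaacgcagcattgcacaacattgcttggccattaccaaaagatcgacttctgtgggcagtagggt
Prdx1, chr4:116685349-116685598, forward strand: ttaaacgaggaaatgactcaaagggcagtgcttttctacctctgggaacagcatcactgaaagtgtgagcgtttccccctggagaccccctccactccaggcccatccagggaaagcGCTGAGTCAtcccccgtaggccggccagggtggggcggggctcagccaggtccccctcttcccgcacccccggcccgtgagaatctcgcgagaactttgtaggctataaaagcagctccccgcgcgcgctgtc
Gclm, chr3:122245307-122245556, forward strand: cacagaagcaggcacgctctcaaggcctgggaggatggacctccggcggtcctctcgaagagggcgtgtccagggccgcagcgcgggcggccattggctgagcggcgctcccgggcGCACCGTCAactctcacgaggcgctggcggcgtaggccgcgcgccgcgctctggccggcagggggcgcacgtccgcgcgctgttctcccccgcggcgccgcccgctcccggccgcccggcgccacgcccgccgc
Txnrd1, chr10:82858956-82859205, forward strand: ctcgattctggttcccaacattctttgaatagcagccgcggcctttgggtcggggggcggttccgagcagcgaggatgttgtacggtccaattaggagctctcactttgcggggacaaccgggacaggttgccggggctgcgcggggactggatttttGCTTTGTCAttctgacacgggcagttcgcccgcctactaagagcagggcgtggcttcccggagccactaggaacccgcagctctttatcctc
Gsta3, chr1:21240335-21240584, forward strand: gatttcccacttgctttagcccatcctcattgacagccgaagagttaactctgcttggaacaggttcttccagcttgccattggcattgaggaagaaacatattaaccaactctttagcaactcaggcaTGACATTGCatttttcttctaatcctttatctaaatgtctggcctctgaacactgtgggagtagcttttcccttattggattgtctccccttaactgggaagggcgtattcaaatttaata
Nfe2l2, chr2:75704664-75704913, reverse strand: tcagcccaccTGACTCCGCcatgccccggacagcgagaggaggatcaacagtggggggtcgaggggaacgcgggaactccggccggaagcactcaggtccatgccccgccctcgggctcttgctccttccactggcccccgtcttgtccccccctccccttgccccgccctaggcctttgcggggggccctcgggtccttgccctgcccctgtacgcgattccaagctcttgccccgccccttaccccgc

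The match began 112 bases before the start of Maff. It was on the gene's own strand in Maff, Gsta3 and Nfe2l2 and on the opposite strand in Prdx1, Gclm and Txnrd1. Gsta3, a glutathione transferase, stood at 0.69 ± 0.20 (adjusted p = 0.191, limma) and at 0.22 with the slide as a block. Prdx1, a peroxiredoxin that Srxn1 repairs, stood at 0.21 ± 0.08 (adjusted p = 0.244, limma).

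Hcar2 and Hook1 had the widest gap between the values of the LPS states among the genes that rose. Hcar2, the receptor for niacin and beta-hydroxybutyrate, read -0.24, -0.25 and -0.04 with control siRNA and 0.64, 1.01 and 1.02 with lincRNA siRNA, and with LPS 1.51, 1.65 and 1.72 against 2.11, 2.05 and 1.83. The average was 0.72 ± 0.10 (adjusted p = 0.0370, limma), with 1.07 without LPS and 0.37 with LPS, and an unadjusted interaction p of 0.0046 that did not pass after adjustment. A second Hcar2 probe read 1.08. Hcar2 was itself LPS-induced, by 1.46 on average over the siRNAs.

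Hook1, a microtubule-linked adaptor of endosome transport, had the lowest signal of the 23 and passed with an adjusted p of 0.0323 (limma). It was well above background on 0 of 3 control-siRNA arrays, 2 of 3 control-siRNA arrays with LPS and all 6 lincRNA-siRNA arrays. Hook1 was therefore kept for testing only through the lincRNA-siRNA groups, where it was high. Hook1 was at -5.97, -6.18 and -5.91 with control siRNA and at -3.29, -3.08 and -4.23 with lincRNA siRNA, and with LPS at -4.60, -4.70 and -5.11 against -4.10, -4.34 and -4.38. With control readings raised to the lowest signal well above background on their array, the rise without LPS was 1.87-fold. The average over both states was then 1.64-fold. These are not strict lower limits: with LPS, the control array at background already read at or above that signal. With another background correction (normexp) its value was 0.32 and did not pass.

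Cnnm2, a membrane protein of magnesium handling, read -0.08, -0.04 and 0.27 with control siRNA and 0.95, 1.11 and 1.23 with lincRNA siRNA, and with LPS -0.18, 0.07 and 0.15 against 0.84, 0.92 and 0.72. Control arrays stayed near 0 in both states and lincRNA-siRNA arrays near 1. Cnnm2 rose by 0.93 ± 0.10 (1.91-fold; adjusted p = 0.0281, limma).

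Top1mt, Pex6 and Nmnat1 rose too. Top1mt, mitochondrial topoisomerase I, ran from 1.87 to 2.14 with control siRNA and from 2.78 to 2.97 with lincRNA siRNA, and with LPS from 2.21 to 2.48 against 2.85 to 3.10. It rose by 0.75 ± 0.08 (1.68-fold; adjusted p = 0.0314, limma). Pex6, an ATPase that recycles the peroxisomal import receptor, rose by 0.62 ± 0.07 on the probe used, and a second, dimmer probe read -0.08. Nmnat1, which makes NAD in the nucleus, rose by 0.46 ± 0.07 and had the smallest change of the 23.

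Pls3, the actin-bundling protein plastin 3, ran from 3.38 to 3.55 with control siRNA and from 4.02 to 4.14 with lincRNA siRNA, and with LPS from 3.38 to 3.65 against 4.00 to 4.40. It rose by 0.65 ± 0.09 (1.57-fold; adjusted p = 0.0427, limma), and a second probe read 0.60. Zcchc4, which methylates ribosomal RNA, rose by 0.48 ± 0.07 and stood next to the threshold together with Nmnat1 (adjusted p = 0.0459 for both).

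**Figure D4:**
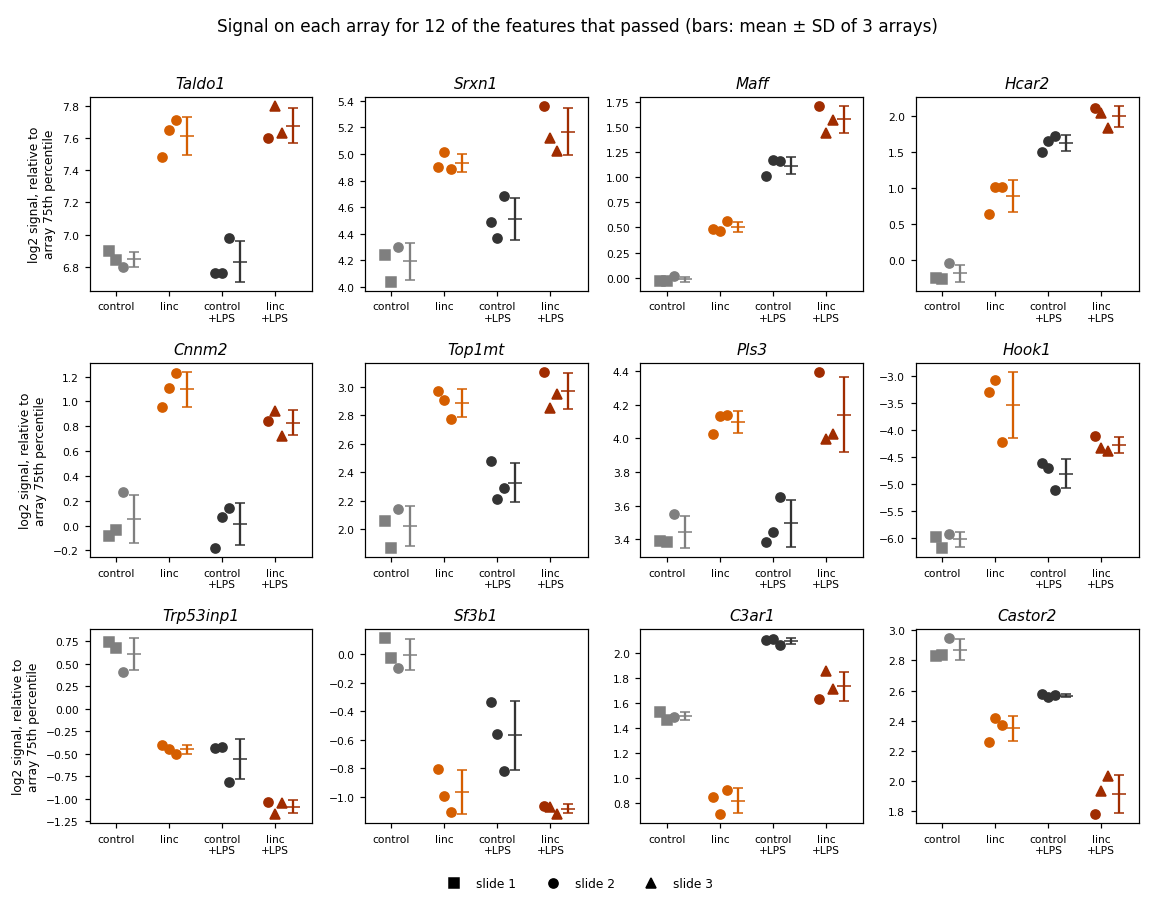
Log2 signal relative to the array's 75th percentile on each of the 12 arrays for 12 of the 23 passing features, by group, with the mean ± SD of 3 arrays beside the points. Squares are slide 1, circles slide 2 and triangles slide 3. In every panel the lincRNA-siRNA arrays of a state lie wholly above or wholly below its control-siRNA arrays.

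Trp53inp1, a p53-induced stress protein, had the largest fall, by 0.79 ± 0.09 on the log2 scale (to 0.577 of the control level; adjusted p = 0.0314, limma). It read 0.74, 0.68 and 0.41 with control siRNA and -0.40, -0.44 and -0.51 with lincRNA siRNA, and with LPS -0.43, -0.43 and -0.82 against -1.04, -1.17 and -1.05. Control arrays with LPS lay near the lincRNA-siRNA arrays without it, and LPS lowered the gene by 0.90 on average (log2 change -0.90). A second, dimmer Trp53inp1 probe gave 0.06, so the fall rests on 1 probe. Of the measured p53 targets, 42.1% had an unadjusted p under 0.05, against 17.0% of all features. Trp53inp1 was the 1 of 19 measured p53 targets to pass, and at an unadjusted p under 0.05 there were 5 higher and 3 lower (4 and 1 with the slide as a block): Tigar stood at 0.35 ± 0.09, Mdm2 at 0.28 ± 0.11 and Btg2 at -0.29 ± 0.08.

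Sf3b1, a core subunit of the U2 snRNP that recognises the branch point, was at 0.12, -0.03 and -0.10 with control siRNA and at -0.80, -1.0 and -1.11 with lincRNA siRNA. With LPS it was at -0.33, -0.56 and -0.82 against -1.06, -1.07 and -1.12. The fall was 0.74 ± 0.10 (log2 change -0.74; adjusted p = 0.0329, limma). It was the 1 of 31 measured splicing and RNA-binding genes to pass, and the list's median was 0.03.

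C3ar1, the receptor of the complement fragment C3a, read 1.53, 1.47 and 1.49 with control siRNA and 0.84, 0.71 and 0.90 with lincRNA siRNA, and with LPS 2.11, 2.12 and 2.07 against 1.63, 1.86 and 1.71. LPS raised it by 0.76 on average, and the lincRNA-siRNA arrays were lower in both states. Its averaged log2 change was -0.52 ± 0.07 (adjusted p = 0.0323, limma), with -0.68 without LPS and -0.36 with LPS.

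Castor2, a relative of the arginine sensor upstream of mTORC1, had the lowest p of the 23 with the slide as a block. It read 2.83, 2.84 and 2.95 with control siRNA and 2.26, 2.42 and 2.37 with lincRNA siRNA, and with LPS 2.57, 2.55 and 2.57 against 1.78, 1.93 and 2.03. Its averaged change was -0.59 ± 0.07 (adjusted p = 0.0314, limma) and -0.69 with the block (unadjusted p = 3.9e-05).

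The other genes that fell had lower values in both states. Itpka, a kinase that phosphorylates inositol trisphosphate, changed by -0.66 ± 0.08, running from -1.17 to -1.08 with control siRNA and from -1.92 to -1.64 with lincRNA siRNA without LPS. Cfl2, the actin-severing protein cofilin 2, changed by -0.62 ± 0.08, and its second probe gave -0.62 too. Of 34 measured genes of the actin cytoskeleton and adhesion, a list without Cfl2, 0 passed, 10 were higher and 2 lower at an unadjusted p under 0.05 (1 and 0 with the slide as a block), and the median was 0.12. In all, 35.3% of that list had such an unadjusted p, against 17.0% of all features. Rab3a, a GTPase of vesicle release, changed by -0.50 ± 0.07 and N4bp3, a Nedd4-binding protein, by -0.61 ± 0.08. Ammecr1 (-0.51 ± 0.07), Rsbn1l (-0.61 ± 0.09) and the clone 2610528A11Rik (-0.61 ± 0.07) complete the genes that fell.

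Of 3535 lincRNA regions tested, 1 passed, on chromosome 12 from 88216447 to 88224965 on the reverse strand of mm9. Its brighter probe, at 88221404 to 88221463, read -2.16, -2.21 and -2.35 with control siRNA and -2.61, -2.86 and -2.76 with lincRNA siRNA, and with LPS -2.36, -2.74 and -2.44 against -3.38, -3.20 and -3.21. The averaged change was -0.63 ± 0.09 (adjusted p = 0.0433, limma). Another kept probe of the region, at 88220885 to 88220944, read 0.38 (unadjusted p = 0.168, limma), so the 2 probes went opposite ways. Both probes of the coding gene Irf2bpl lie inside the region's span on the same strand, and they read -0.21 and -0.24 (unadjusted p = 0.0757 and 0.0684, limma), so signal of the region and of Irf2bpl may not be separable. The median of all lincRNA regions was 0.08 and that of genes with a symbol 0.03.

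Of the 23 features, 17 rest on a single kept probe. Of the other 6, second probes of Hcar2, Pls3 and Cfl2 gave changes in the same direction, and those of Pex6, Trp53inp1 and the chromosome 12 region did not. Just outside the threshold, at an adjusted p of 0.0539, stood Armt1 (0.51 ± 0.08), Vmn1r65 (0.50 ± 0.07) and Btnl10. Btnl10 had lower values with the lincRNA siRNA but was well above background on 0 of those 6 arrays. It was kept for testing only through the control-siRNA arrays with LPS. With lincRNA-siRNA readings raised to each array's lowest signal well above background, its difference was 1.43-fold with LPS and below 1 without it. These are not strict lower limits.

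None of 5 genes followed for their tie to the lincRNA or to LPS, Tnfaip3, Nfkbia, Hmgb1, Tnf and Il6, passed. Tnfaip3 itself read 3.13, 2.93 and 2.84 with control siRNA and 3.02, 2.34 and 2.38 with lincRNA siRNA, and with LPS 4.59, 4.17 and 4.12 against 4.03, 3.91 and 3.69. The arrays overlapped without LPS, and the averaged value was -0.40 ± 0.14 (adjusted p = 0.238, limma). Nfkbia, the NF-kB inhibitor, stood at -0.19 ± 0.09. Hmgb1, a nuclear protein that acts as a danger signal outside cells, stood at -0.21 ± 0.15 on the probe used. Other kept Hmgb1 probes read from -0.18 to 0.14, so the probe used had the lowest value. Tnf stood at -0.02 ± 0.07. Il6 stood at 0.19 ± 0.24, with 0.60 without LPS and -0.22 with LPS, against an LPS effect of 6.42.

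Among 31 measured NF-kB subunits, inhibitors and feedback genes 0 passed, 4 were higher and 4 lower at an unadjusted p under 0.05 (3 and 2 with the slide as a block), and the median was -0.09. In all, 25.8% of the list had such an unadjusted p, against 17.0% of all features. Socs3, a feedback inhibitor of cytokine signalling, had the smallest p of the list at -0.58 ± 0.12 (adjusted p = 0.102, limma). Among 20 cytokines 0 passed and the median was 0.03, and Csf1, the macrophage growth factor, stood at -0.52 ± 0.11 (adjusted p = 0.133, limma). Among 15 chemokines 0 passed and the median was 0.32 (0.07 with the slide as a block). The 29 TLR4 signalling genes had a median of -0.09 and 0 that passed, with Cd14, the LPS co-receptor, at 0.61 ± 0.18.

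Features induced at least 2-fold by LPS (470, on the average over siRNAs and at an adjusted p under 0.05, 1.97% of all) held 2 that rose with the siRNA, Hcar2 and Maff, and 0 that fell. Their median siRNA difference was 0.41 without LPS and -0.07 with LPS, and 0.15 on the average. The 35 features lowered at least 2-fold by LPS at that threshold (0.147%) held 0 that passed, with a median of -0.37. Their median was -0.65 without LPS and -0.19 with LPS. At an unadjusted p under 0.05, 16 of the 35 were lower (45.7%, against 6.21% of all features) and 0 were higher. The median over 46 interferon-stimulated genes was 0.88 without LPS, -0.01 with LPS and 0.45 on the average, the highest of the 36 lists. None of the 46 passed, and 7 were higher at an unadjusted p under 0.05 (15.2%, against 10.8% of all features). In both states 0 were free of overlap (3.56% of all features were). With the slide as a block 0 were higher at an unadjusted p under 0.05. On each array the median log2 signal over the 46 genes was -0.09, 0.34 and -0.21 with control siRNA and -0.61, 2.01 and 2.09 with lincRNA siRNA, and with LPS 3.52, 3.78 and 3.93 against 3.98, 3.60 and 3.57. LincRNA-siRNA arrays 2 and 3 without LPS were thus high, and array 1 of that group was below all 3 of its controls. Ifi44l, with the smallest p and above background on 1 of 3 control-siRNA arrays, ran from -4.65 to -3.99 with control siRNA and from -3.42 to -0.60 with lincRNA siRNA, and its average was 1.60 ± 0.48 (adjusted p = 0.194, limma). The difference between the states was not tested for the list, and 0 of its genes passed the interaction.

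**Figure D5:**
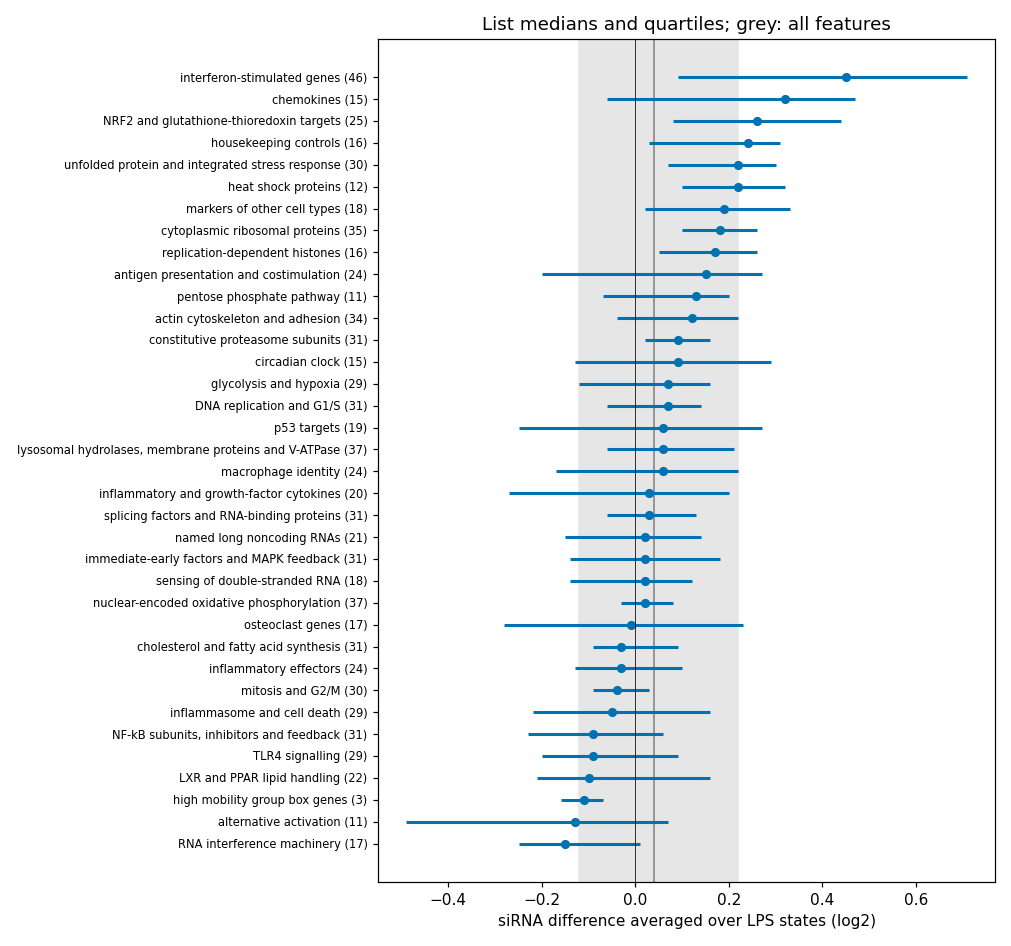
Median (point) and quartiles (line) of the averaged siRNA difference in log2 units for each of 36 gene lists, with the number of measured genes in brackets. The grey band spans the quartiles of all features (-0.12 to 0.22) around their median of 0.04, and list medians run from -0.15 for the RNA interference machinery to 0.45 for interferon-stimulated genes.

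No protein-folding gene passed, and many had values above 0. Of 12 heat shock genes 7 were higher and 0 lower at an unadjusted p under 0.05 (58.3%, against 10.8% of all features), with a median of 0.22. When the slide was a block, 2 were higher and 0 lower (4.31% of all features were higher), and the median was 0.20. Hspd1, the mitochondrial chaperonin, stood at 0.35 ± 0.09 (adjusted p = 0.149, limma). Of 30 genes of the unfolded protein and integrated stress response 10 were higher and 2 lower at an unadjusted p under 0.05, with a median of 0.22, against 5, 1 and 0.13 under the slide block. In all, 40% of that list had such an unadjusted p on all arrays, against 17.0% of all features. Hspa5, the chaperone BiP, stood at 0.38 ± 0.12, and Edem1, which sorts misfolded proteins for degradation, at -0.67 ± 0.14 (adjusted p = 0.124, limma). Housekeeping controls and ribosomal proteins also had medians above the background, 0.24 over 16 genes and 0.18 over 35, against 0.10 and 0.02 when the slide was a block. Of the 16 housekeeping controls 8 were higher and 0 lower at an unadjusted p under 0.05 (50%).

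The 17 measured genes of the RNA interference machinery, through which the siRNAs themselves act, had the lowest list median, -0.15 (-0.08 with the slide as a block). At an unadjusted p under 0.05, 0 were higher and 5 were lower (6.21% of all features were lower), and with the block 0 were higher and 1 was lower. Tnrc6a, a scaffold of the silencing complex, read 2.35, 2.18 and 1.96 with control siRNA and 1.78, 1.46 and 1.5 with lincRNA siRNA, and with LPS 1.77, 1.74 and 1.60 against 1.30, 1.34 and 1.1. Its arrays did not overlap in either state, and its value was -0.52 ± 0.09 (adjusted p = 0.0801, limma). Ago2, the slicing Argonaute, stood at -0.30 ± 0.12 and Dicer1 at -0.26 ± 0.14.

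Macrophage identity genes had a median of 0.06 over 24 genes, and 0 passed. Lyz2, lysozyme, read 5.48, 5.18 and 5.58 with control siRNA and 5.94, 6.56 and 6.43 with lincRNA siRNA, and with LPS 5.59, 5.93 and 6.19 against 6.62, 6.57 and 6.88. These arrays did not overlap in either state, and the value was 0.84 ± 0.15 (adjusted p = 0.0724, limma). Slpi, a secreted protease inhibitor, stood at 0.99 ± 0.17 at the same adjusted p. Of 17 osteoclast genes, which RAW264.7 cells can switch on, 4 were higher and 5 lower at an unadjusted p under 0.05, against 2 and 0 with the slide as a block. On all arrays 52.9% of the list had such an unadjusted p, against 17.0% of all features. Acp5 stood at 0.31 ± 0.07 and Ctsk at 1.09 ± 0.29, and the factor Nfatc1 at -0.50 ± 0.19.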

How the data were processed

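Single-colour Cy3 arrays of total RNA were deposited as spot intensity values that, per the file headers, Agilent's Feature Extraction 10.7.1.1 wrote. The processed intensity had its background subtracted by that software, per the file headers, and the arrays were not scaled to each other. The authors' value table held log2 values, a scale read from its slope of 0.984 to 1.03 on each array's log2 signal. Its columns share a median of 4.75; the sources used here do not give the normalization, and the table was an alternative.

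Of 59305 non-control spots (55681 probes), outlier spots (104 to 258 an array) were dropped and spots of a probe averaged; 69 values stayed missing and 0 spots were saturated. Values were log2 signal minus the array's 75th percentile (314.1 to 481.4). The 33151 probes (59.5%) were kept that had a group whose 3 arrays were all well above background, and the brightest probe stood for a feature. Positions are those of mm9; exon and UTR annotation was not used here. Names were updated through RefSeq's gene list of GRCm38.p6 (26591 probes matched by accession, 3086 by symbol or synonym).

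A mean per group was fitted to 12 arrays with limma 3.58.1 (R 4.3.3; 8 residual degrees of freedom), with Benjamini-Hochberg adjustment over 23818 features and a threshold of 0.05; the script was tested on simulated data. Errors are standard errors of that model; the number of arrays limits precision. Named were all passing features, the member of each list that passed or had the smallest p, Tnfaip3, Hmgb1, Il6, Tnf and Nfkbia, and the lincRNA regions with the smallest p; others named are said to be so or stand in full in a plotted list. Members, lists and tests were chosen with earlier results of these data known. Replicate numbers did not pair the arrays (correlations of -0.30 to 0.469 between same-numbered arrays, median 0.09). After the values were seen, an array of each group stood out as linked under other numbers, with correlations of 0.147 to 0.469 among them. These were array 3 of lincRNA siRNA without LPS and array 2 of the other groups. The fit has no term for such a link, and its source was not tested. Alternatives changed the background correction, scaling, filter, probe choice, slide, spread and arrays. Figures used Python 3.11.15 and matplotlib 3.10.9.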

Additional observations from a re-analysis of the deposited data

How the results depend on the processing

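The count of 23 passing features for the averaged siRNA difference moved by over 1.5 times under these settings: 95 with probes above background on all 12 arrays, 359 with array weights, 38 in the authors' value table, 92 with a trended and robust spread, 0 without a filter (4023 at an unadjusted p under 0.05, limma), 0 with the slide as a fixed block (1800), 0 on slide 2 only (1641), 3 without slide 1 and 1 without slide 3. It was 18 to 31 under 7 others, among them 25 with normexp, 26 with quantile scaling and 20 with the slide as a random block. Leaving out single arrays gave 0 to 1471, and for the difference without LPS 0 to 2356 and the interaction 0 to 315. The highest of each was without control-siRNA array 3, which leaves the siRNAs on different slides in the state without LPS. Without lincRNA-siRNA array 1 these counts were 215, 127 and 1. Without LPS, where 0 passed, there were 3050 with array weights, 3 with normexp, 1 with the slide as a block, 6 with the trended and robust spread and 4 without slide 1, and leaving out lincRNA-siRNA array 3 gave 8 and control-siRNA array 1 gave 1. With LPS, 2 passed with the slide as a block, 1 with the trended and robust spread and 2 without slide 3. The causes were not tested.

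With the replicate number as a block 19 passed, 9 of them among the 23, and 5 of 12 arrays correlated best with an array of their own number.

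None of the 23 reversed in 28 settings (27 for Hook1). These settings reuse arrays that chose the 23, so the kept sign is not separate support. All of the 23 failed to pass in some settings, from 11 of 28 for Taldo1 to 20 of 28 for the chromosome 12 region. Of the other named genes, Il6 reversed in the authors' value table (-0.44) and with normexp (-0.011). Ldha reversed on slide 2 only and with the slide as a block, which are the same estimate (-0.012). Tnf reversed with array weights (0.011) and without lincRNA-siRNA array 1 (0.000904, against a lowest value of -0.061 without array 3 of lincRNA siRNA with LPS). Dim probes limit what can be said of Hook1, which was at background in 1 group.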

Other observations

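Large differences were mostly in dim probes and did not pass. Features in this section were chosen after their values were seen, unless they had the smallest p of their list. Enpp2, which encodes autotaxin, a secreted enzyme that makes lysophosphatidic acid, was one of the brighter of these. Its log2 signal was -1.85, -1.98 and -1.96 with control siRNA and -1.19, 0.35 and 0.33 with lincRNA siRNA, and with LPS -1.79, -0.90 and -1.01 against 0.33, -0.03 and 0.29. The arrays did not overlap in either state, and the average was 1.59 ± 0.27 (adjusted p = 0.0724, limma). Dusp16, a phosphatase of JNK and p38, stood at 0.51 ± 0.09, and Bhlhe41, a repressor of the circadian clock, at 0.86 ± 0.15, likewise without overlap, although Bhlhe41 was above background on 1 of 3 control-siRNA arrays without LPS (adjusted p = 0.0801 and 0.0733, limma).

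Lysosomal genes had a median of 0.06 over 37 genes, with 8 higher and 3 lower at an unadjusted p under 0.05 (4 and 0 with the slide as a block) and 0 that passed. In all, 29.7% of the list had such an unadjusted p, against 17.0% of all features. The cathepsins Ctsb (0.27 ± 0.08), Ctsl (0.31 ± 0.10) and Ctss (0.27 ± 0.10) had values above 0, and Ctsh (-0.63 ± 0.26) and the acid ceramidase Asah1 (-0.51 ± 0.13) below it. Plin2, the coat protein of lipid droplets, stood at 0.59 ± 0.15 with no overlap of arrays (adjusted p = 0.157, limma).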
